A study of Rattus norvegicus with 24 samples.

Results

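Glucose enters the rat heart through the transporters encoded by Slc2a1 and Slc2a4, is trapped inside the cell by hexokinase 2 (Hk2), and can end as lactate through lactate dehydrogenase A (Ldha). The RNA of these 4 genes was followed in the left ventricle after spinal cord injury. They were chosen by Ensembl gene ID (ENSRNOG00000007284 for Slc2a1, ENSRNOG00000017226 for Slc2a4, ENSRNOG00000006116 for Hk2 and ENSRNOG00000013009 for Ldha) out of the 23098 IDs of the deposited count table, and all 4 were among the 15065 genes with enough counts to test. The tissue was the free wall of the left ventricle at mid-ventricular level, flash frozen, from male Wistar rats, whose age the labels do not give. The sham group had only the dura opened at a high thoracic level and was collected 7 days after surgery. The other groups had a complete transection of the spinal cord (SCI) at a high thoracic level and were collected 1 day, 3 days or 12 weeks after surgery. Each of these 4 groups held 6 libraries, 24 in all. Because sham tissue was taken at a single time, no SCI group has a sham group of its own time. The labels do not say whether every library is from a separate rat. Should some share a rat, part of the spread behind each p-value is technical.

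The adult heart draws most of its energy from fatty acids and uses glucose as its next main fuel. The Slc2a1 product, GLUT1, sits largely at the cell surface and carries basal glucose uptake, and it is also abundant in endothelial cells. The Slc2a4 product, GLUT4, is the insulin-responsive transporter of heart, skeletal muscle and fat, and moves from internal vesicles to the surface on insulin or contraction. Hexokinase 2 is the main inducible hexokinase of striated muscle and turns glucose into glucose 6-phosphate. The Ldha product is the muscle-type subunit of lactate dehydrogenase, which interconverts pyruvate and lactate.

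The sequence upstream of a gene's start is where factors known to act on these genes bind, so the 250 bases before the annotated start are shown for the members held by the RefSeq table of build GRCr8. This table matched 3 of the 4 symbols, namely Slc2a1, Hk2 and Ldha. The windows are chr5:138002272-138002521 on the plus strand, chr4:116841276-116841525 on the minus strand and chr1:106507842-106508091 on the plus strand, each written 5′ to 3′ along its gene. Capitals mark matches on either strand to ACGTG (the core letters of hypoxia response elements), CACGTG (the palindromic E-box, which holds ACGTG on both strands) and TGACGTCA (the cyclic AMP response element).
Slc2a1: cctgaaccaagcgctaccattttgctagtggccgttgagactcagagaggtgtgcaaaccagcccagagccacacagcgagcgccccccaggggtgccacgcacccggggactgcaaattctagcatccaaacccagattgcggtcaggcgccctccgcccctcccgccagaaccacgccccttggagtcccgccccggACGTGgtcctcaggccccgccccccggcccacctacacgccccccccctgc
Hk2: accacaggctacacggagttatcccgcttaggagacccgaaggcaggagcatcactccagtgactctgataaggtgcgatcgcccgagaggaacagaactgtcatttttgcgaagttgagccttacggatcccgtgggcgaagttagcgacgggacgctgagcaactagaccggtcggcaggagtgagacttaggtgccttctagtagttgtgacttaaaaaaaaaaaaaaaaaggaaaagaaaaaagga
Ldha: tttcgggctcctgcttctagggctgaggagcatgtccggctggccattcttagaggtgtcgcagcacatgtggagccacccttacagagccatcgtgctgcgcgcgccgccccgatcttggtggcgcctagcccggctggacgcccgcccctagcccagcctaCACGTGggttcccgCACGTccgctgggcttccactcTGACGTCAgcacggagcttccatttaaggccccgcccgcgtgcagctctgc
In the Slc2a1 window 1 ACGTG lay 51 to 47 bases before the start. The Ldha window held CACGTG at 87 to 82 bases, a further ACGTG on the opposite strand at 73 to 69 bases and TGACGTCA at 51 to 44 bases before the start. None of these letters was found in the Hk2 window. Among the 33469 windows of the same length in the table, 16.6% held ACGTG, 5.59% CACGTG and 1.59% TGACGTCA on either strand. GCGTG and GGGCGG, searched on both strands as well, were found in the Slc2a1 and Ldha windows, and in 25.9% and 30.5% of all windows. GCGTG lay on the opposite strand at 153 to 149, 76 to 72 and 16 to 12 bases before the Slc2a1 start. In the Ldha window it lay 14 to 10 bases before the start. The Slc2a1 and Ldha windows were 68.4% and 66.4% G or C and the Hk2 window 49.6%, against a median of 51.2%. The match is one of letters and no binding was measured here.

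Libraries held between 15002476 and 70340174 counts. Levels are given as CPM, counts relative to the library total after scaling by TMM factors, and are compared within a gene only, because they are not divided by gene length. The lowest count of any member in a library was 244, for Slc2a1, where counting alone gives an error of 6.4%. The libraries least correlated with the rest of their own group were 12 week replicates 3 and 1 and 3 day replicate 5, with mean r of 0.968, 0.973 and 0.971 over genes against 0.978 to 0.989 in the others. In 12 week replicate 3, 758 of 15065 genes stood above the other 5 libraries of the group by Dixon's criterion, against 33 to 137 in those 5. In 3 day replicate 5, 552 genes stood above the others of its group by this criterion, against 56 to 150 in those. In the same library 203 genes stood below the others, against 19 to 35 in those, and 131 did in 12 week replicate 3. Results that rest on 12 week replicate 3 are given with and without it. The labels number the sham and 3 day libraries from 57 to 68 and the 1 day and 12 week libraries from 77 to 88, without saying what the number stands for. Within these runs each group has its own consecutive numbers. Those of 3 days are 57 to 62 and those of sham 63 to 68. Those of 1 day are 77 to 82 and those of 12 weeks 83 to 88. Sham against 3 days and 1 day against 12 weeks lie within a run of numbers. Even there the group and the order of the numbers cannot be told apart. In the other comparisons the group and the run cannot be told apart.

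Slc2a1 was higher than sham at every time after injury, though only the 1 day and 3 day differences held without 12 week replicate 3. In sham its level was 12.4 CPM in the lowest library, 17.5 CPM at the median and 22.4 CPM in the highest. At 1 day the lowest, median and highest libraries had 20.4, 32.1 and 47.9 CPM. All 6 of the 1 day libraries were above the sham mean and 5 of them above the highest sham library, so that the groups overlapped in 1 library. The sham mean was 17.2 ± 3.54 CPM and that of 1 day 32.7 ± 10.2 CPM (SD, n = 6). Slc2a1 thus rose 1.90-fold (log2 fold change 0.93, SE 0.283) with a 95% interval of 1.27 to 2.85 (edgeR quasi-likelihood test, adjusted p = 0.0189). Slc2a1 was the only member called at this time, when 24% of all tested genes were called and 11.9% were called higher. The call was lost without 1 day replicate 3, the highest library (log2 fold change 0.79, edgeR adjusted p = 0.0538).

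At 3 days Slc2a1 lay at 19.3, 33.3 and 38.5 CPM in the lowest, median and highest libraries. Again 5 of the 6 libraries exceeded every sham library, the exception being replicate 5, the shallowest of its group. The mean was 30.9 ± 7.54 CPM (SD, n = 6), 1.80-fold that of sham (95% interval 1.20 to 2.7, log2 fold change 0.85, SE 0.284, edgeR adjusted p = 0.0399). This comparison lies within a run of library numbers. The call was close to the threshold and was lost when any of sham replicates 1 to 5 or 3 day replicates 1, 2, 4 or 6 was left out (edgeR adjusted p 0.0542 to 0.0875). Without 12 week replicate 3, whose spread enters the shared estimate, the same fold had an SE of 0.192 and an adjusted p of 0.00277 by edgeR.

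At 12 weeks the Slc2a1 libraries split into 1 very high value and 5 near sham. Replicate 3 had 72.0 CPM, and the others had 15.4 to 27.3 CPM, of which 3 lay within the range of sham. With all 6 libraries the mean was 29.8 ± 21.1 CPM (SD) and the log2 fold change 0.80 (SE 0.284, 1.74-fold, 95% interval 1.16 to 2.61, edgeR adjusted p = 0.0455). Without replicate 3 the mean was 21.5 ± 4.49 CPM (SD, n = 5), and the log2 fold change of 0.32 was not called (SE 0.202, 1.25-fold, 95% interval 0.937 to 1.67, edgeR adjusted p = 0.269). The call was also lost without sham replicates 1 to 5, 1 day replicates 4 or 6, 3 day replicates 2 or 6, or 12 week replicate 5 (edgeR adjusted p 0.0507 to 0.098). In order of mean level the groups ran from 1 day through 3 days and 12 weeks down to sham. Neighbours among the SCI groups did not differ by test, with log2 differences of -0.08 for 3 days minus 1 day (95% interval -0.65 to 0.50) and -0.05 for 12 weeks minus 3 days (-0.63 to 0.53). The direct difference of 12 weeks minus 1 day was -0.13 with all libraries (edgeR adjusted p = 0.757), and no member was called in this comparison although 33.9% of all genes were. Without 12 week replicate 3 it was -0.60, a call of lower expression at 12 weeks than at 1 day within a run of library numbers (SE 0.201, edgeR adjusted p = 0.0253), where 14.6% of all genes were called lower. Against 3 days the difference without this library was -0.53 (edgeR adjusted p = 0.0527).

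Slc2a1 varied more between libraries of a group than most genes of its level. Its coefficient of variation was 20.6% in sham, where the median of 2262 genes within 0.5 log2 units of its mean level was 7.3%. It was 31.3% at 1 day, 24.4% at 3 days and 70.6% at 12 weeks, and 20.9% in the 5 lower 12 week libraries. In each group it exceeded at least 94% of those genes. The spread is well above counting error at these depths. In tissue RNA, fewer cells of a type and less RNA per cell cannot be told apart, and markers of endothelial, blood and muscle cells were not used here because no table used here pairs the Ensembl IDs with symbols. Their part in these results was not tested.

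**Figure D1:**
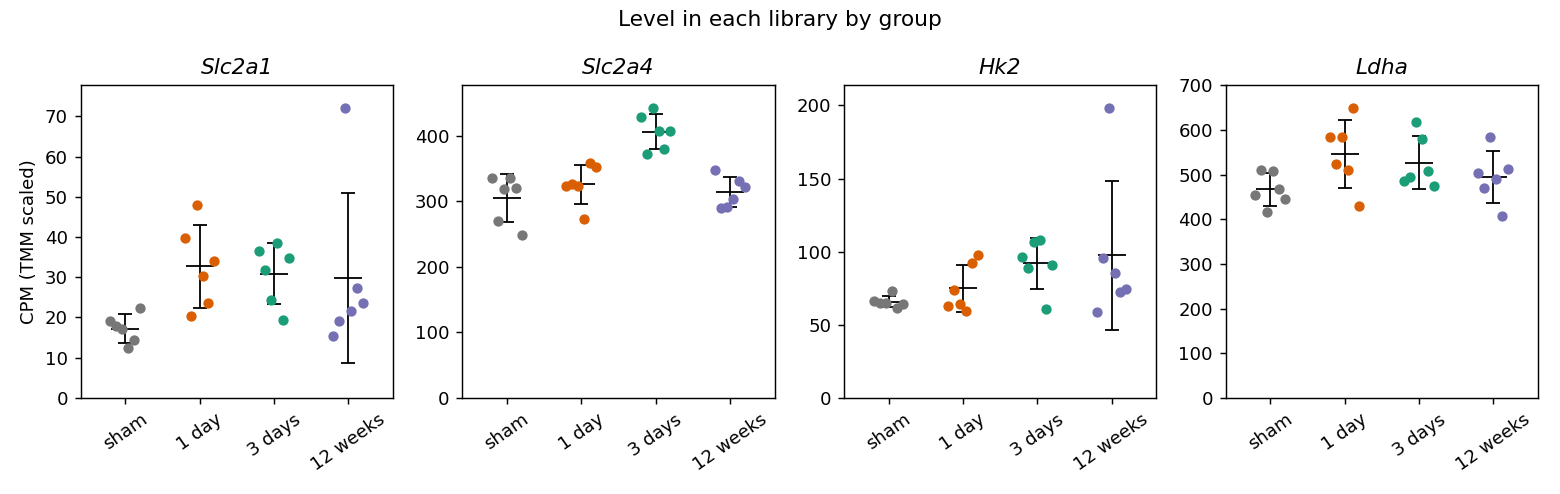
Level of each member in every library, in CPM after TMM scaling, by group (6 points a group); black bars are the mean ± SD. Slc2a4 at 3 days lies at 372 to 442 CPM, above every other library, and 12 week replicate 3 stands alone at 72.0 CPM for Slc2a1 and 198 CPM for Hk2.

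Slc2a4 was called higher than sham at 3 days and not at 1 day or 12 weeks. Its levels in sham were 249, 319 and 336 CPM in the lowest, median and highest libraries, and those at 1 day were 273, 326 and 358 CPM. At 3 days they were 372, 408 and 442 CPM, and at 12 weeks 289, 313 and 348 CPM. Every 3 day library was thus above every one of the other 18 libraries, while sham, 1 day and 12 weeks overlapped one another. This was the pattern of 9 of the 15065 genes tested, or 0.0597%, and it was looked for after the values of Slc2a4 had been seen.

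Mean Slc2a4 was 305 ± 36.5 CPM in sham and rose to 407 ± 27.1 CPM at 3 days (SD, n = 6). The log2 fold change was 0.42 (SE 0.0766), or 1.33-fold with a 95% interval of 1.20 to 1.49 (edgeR adjusted p = 0.000571), and it ranked 345 by p among the genes tested. At this time 2 of 4 members, Slc2a1 and Slc2a4, were called, both higher, against 17.5% of all genes called and 8.88% called higher. Groups that do not overlap were found for 8.93% of all genes in this comparison, and among the members for Slc2a4 alone. Both groups belong to the same run of library numbers. The call held with each of the 24 libraries left out in turn (log2 fold change 0.37 to 0.45, edgeR adjusted p 0.000335 to 0.00223).

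At 1 day the Slc2a4 mean of 326 ± 29.95 CPM differed from sham by a log2 fold change of 0.10 (1.07-fold, 95% interval 0.959 to 1.19, edgeR adjusted p = 0.375). At 12 weeks the mean was 314 ± 23.4 CPM and the log2 fold change 0.04 (1.03-fold, 95% interval 0.924 to 1.15, adjusted p = 0.728). Neither was called. The rise between 1 and 3 days was called in the direct comparison, with a log2 difference of 0.32 (SE 0.0765, 1.25-fold, 95% interval 1.12 to 1.39, edgeR adjusted p = 0.0256), when 2.74% of all genes were called. This call was lost without 1 day replicates 1 or 4 or 3 day replicates 1, 3 or 4 (edgeR adjusted p 0.0502 to 0.063). From 3 days to 12 weeks the level fell by 0.37 on the log2 scale (SE 0.0766, 0.773-fold, 95% interval 0.693 to 0.862, edgeR adjusted p = 0.000702). Slc2a4 was the only member called in that comparison, in which 31.3% of all genes were called and 15.3% were called lower. The groups do not overlap in either of these comparisons, which holds for 2.04% of all genes between 3 days and 1 day and for 10.1% between 12 weeks and 3 days. This course, called higher at 3 days than in each of the other groups with neither of the other times called against sham, was shared by 20 of the tested genes, 0.133%. It too was looked for after the values of Slc2a4 had been seen, and it includes the call between 1 and 3 days that some libraries decide.

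The spread of Slc2a4 was smaller than that of Slc2a1, with coefficients of variation of 12.0% in sham and 9.18, 6.66 and 7.44% after injury in order of time. Medians over 230 genes of like level were 5.86, 7.95, 9.65 and 10.1% in the same order. In 12 week replicate 3, the library with the highest Slc2a1 and Hk2, Slc2a4 stood at 292 CPM, inside the range of its group.

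The level of Slc2a1 was also set against that of Slc2a4 in the same library. Expressed as the log2 ratio of Slc2a1 to Slc2a4 relative to the sham mean, which cancels gene length, sham libraries lay between -0.60 and 0.69 with an SD of 0.447. At 1 day the ratio was 0.79 ± 0.50 (SD, n = 6) and ranged from 0.16 to 1.41, with 4 of 6 libraries above the highest in sham and the ranges overlapping. At 3 days, when both transporters were higher than in sham, it was 0.41 ± 0.38 with a range of -0.13 to 0.76. At 12 weeks it was 0.56 ± 0.83, and 0.24 over the 5 libraries other than replicate 3, which had 2.15. These ratios are a description and were not tested.

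**Figure D2:**
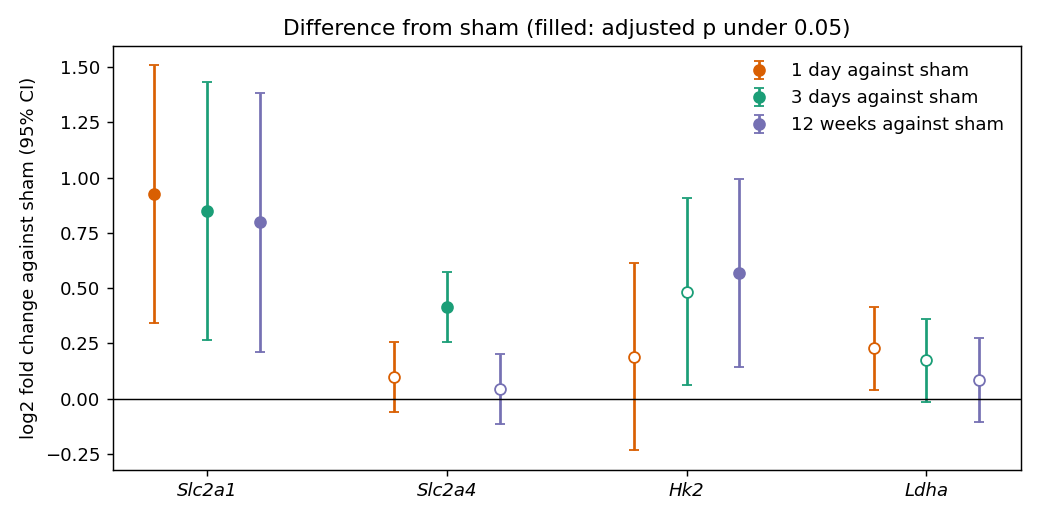
Log2 fold change of each member against sham at 1 day, 3 days and 12 weeks, with 95% intervals from the fit over all genes (6 libraries a group); filled points have an adjusted p under 0.05. Slc2a1 is at 0.93, 0.85 and 0.80 with wide intervals, and Slc2a4 is away from 0 at 3 days only, at 0.42.

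Hk2 was within 61.6 to 73.2 CPM in every sham library and spread more widely after injury, mostly upward. The lowest library of each SCI group was below the lowest in sham. At 1 day the lowest, median and highest libraries had 59.3, 69.0 and 97.5 CPM, and 3 of the 6 exceeded every sham library. At 3 days these values were 60.6, 93.7 and 108 CPM, with 5 of 6 libraries above the highest in sham and replicate 5 below the lowest. At 12 weeks they were 58.9, 80.0 and 198 CPM, with 4 of 6 above the highest in sham. Sham itself had a coefficient of variation of 5.99%, against 21.6%, 18.7% and 52.1% after injury in order of time. The 12 week value was 18.1% without replicate 3. Over 1427 genes of like level the medians were 6.09, 7.27, 8.84 and 9.54% in the same order.

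With all 24 libraries Hk2 was called against sham at 12 weeks only. Mean levels were 65.8 ± 3.94 CPM for sham and 97.5 ± 50.9 CPM for 12 weeks (SD, n = 6), or 1.48-fold (95% interval 1.11 to 1.99, log2 fold change 0.57, SE 0.206, edgeR adjusted p = 0.0488). Of the 4 members, Slc2a1 and Hk2 were called at this time, both higher, against 22.1% of all genes called and 11.3% called higher. The value rests on replicate 3 with 198 CPM, where the other libraries had 58.9 to 96.0 CPM. Without it the mean was 77.8 ± 14.1 CPM (SD, n = 5) and the log2 fold change 0.24 (SE 0.139, 1.18-fold, 95% interval 0.966 to 1.44, edgeR adjusted p = 0.236). The call was so near the threshold that it was kept in only 5 of the 24 fits with a library left out, those without 12 week replicates 1, 5 or 6, 1 day replicate 6 or 3 day replicate 5.

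At 3 days Hk2 stood at 91.9 ± 17.1 CPM (SD, n = 6), with a log2 fold change of 0.48 (SE 0.206, 1.40-fold, 95% interval 1.04 to 1.88) that was not called in the fit of all libraries (edgeR adjusted p = 0.108). Without 12 week replicate 3 the log2 fold change was again 0.48, the SE fell to 0.132 and the adjusted p was 0.0111 by edgeR. It was called as well with only the sham and 3 day libraries in the fit (0.49, edgeR adjusted p = 0.00574) and in a fit holding surrogate variables (0.61, adjusted p = 0.00412). By DESeq2 and limma-voom it was not called (adjusted p = 0.0769 and 0.101). Nor was it called by edgeR with upper-quartile scaling, no filter on low counts or a term for replicate number (adjusted p 0.0914 to 0.127). Of the 24 fits with a library left out, 1 called it, that without 12 week replicate 3. At 1 day the mean was 74.97 ± 16.2 CPM and the log2 fold change 0.19 (SE 0.205, 1.14-fold, 95% interval 0.85 to 1.53, edgeR adjusted p = 0.54). The direct comparisons between SCI groups with all libraries called no difference for Hk2 by edgeR or DESeq2, and none had an unadjusted p under 0.05. The log2 differences were 0.30 for 3 days minus 1 day (edgeR adjusted p = 0.495), 0.38 for 12 weeks minus 1 day (adjusted p = 0.16) and 0.09 for 12 weeks minus 3 days (adjusted p = 0.793). Without 12 week replicate 3 the difference of 12 weeks minus 1 day was 0.047 and that of 12 weeks minus 3 days was -0.25. In that fit the difference of 3 days minus 1 day was 0.295, with an unadjusted p of 0.0348 and an adjusted p of 0.209 by edgeR.

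Thus the number of members called changed with a single library. This library, 12 week replicate 3, was picked out from these same data and holds the highest Slc2a1 and Hk2. Leaving it out lowered the SE of both at 3 days, from 0.284 to 0.192 and from 0.206 to 0.132. With all libraries 1, 2 and 2 of 4 members were called higher than sham at 1 day, 3 days and 12 weeks. Without 12 week replicate 3 the numbers were 1, 3 and 0, against 13.5, 10.3 and 11% of all genes called higher in that fit. At 12 weeks no member of that fit had an unadjusted p under 0.05 either. In both fits the log2 fold changes of all 4 members against sham were positive at all 3 times, several with intervals that include no change. Those of Slc2a4 and Ldha at 12 weeks were 0.04 and 0.08 with all libraries, with such intervals. The median log2 fold change of the 4 members was 0.21, 0.45 and 0.33 in order of time, where the median over all genes was between 0.0005 and 0.0076. The 12 week median was 0.15 without 12 week replicate 3. The 3 comparisons share the sham libraries.

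**Figure D3:**
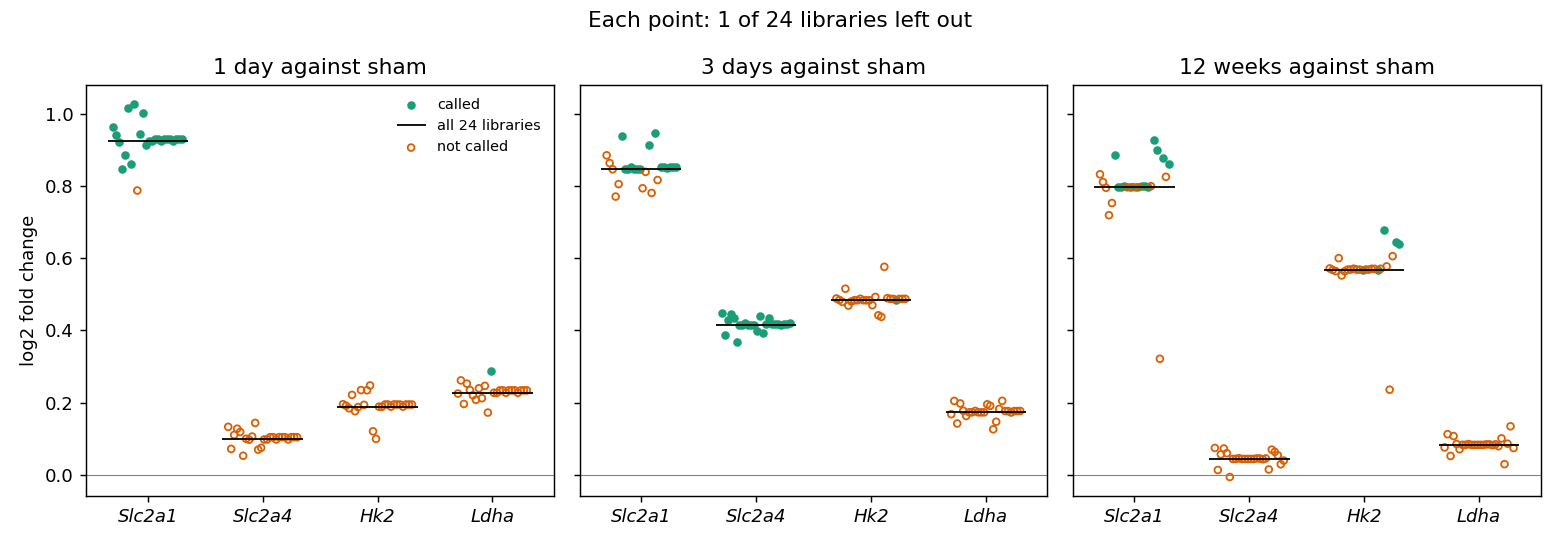
Log2 fold change against sham of each member when each of the 24 libraries was left out in turn (1 point a fit, filled where the adjusted p was under 0.05); black lines are the values with all libraries. The lowest 12 week points, 0.32 for Slc2a1 and 0.24 for Hk2, are the fits without 12 week replicate 3.

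Ldha was not called in any of the 6 comparisons by edgeR, nor by DESeq2, and 1 of the 6 had an unadjusted p under 0.05. Its levels in sham were 417, 461 and 511 CPM in the lowest, median and highest libraries. At 1 day they were 430, 554 and 649 CPM, at 3 days 473, 501 and 618 CPM, and at 12 weeks 408, 498 and 584 CPM. All of the groups overlapped, with 4 of the 1 day libraries and 2 of those at each later time above the highest in sham. Mean levels were 467 ± 36.9 CPM for sham and 547 ± 75.9 CPM for 1 day (SD, n = 6), or 1.17-fold (95% interval 1.03 to 1.33, log2 fold change 0.23, SE 0.0919) with an unadjusted p of 0.0206 and an adjusted p of 0.073 by edgeR. It passed the threshold without 1 day replicate 6, the lowest library of that group (0.29, edgeR adjusted p = 0.021), under upper-quartile scaling (0.25, adjusted p = 0.0442) and in a fit holding surrogate variables (0.29, adjusted p = 0.032). Under the other settings, and with any other library left out, it was not called (edgeR, limma and DESeq2 adjusted p 0.0507 to 0.191). At 3 days the mean was 527 ± 58.7 CPM and the log2 fold change 0.17 (1.13-fold, 95% interval 0.989 to 1.29, edgeR adjusted p = 0.208). At 12 weeks these were 495 ± 57.6 CPM and 0.08 (1.06-fold, 95% interval 0.929 to 1.21, adjusted p = 0.559), and the log2 fold change was 0.029 without 12 week replicate 3. A rise of more than about 1.33-fold at any time lies outside these intervals, which are those of the fit of all libraries. No intervals are given for the other fits, some of which had larger values at 1 day. Between SCI groups the log2 differences of Ldha were -0.05 for 3 days minus 1 day, -0.14 for 12 weeks minus 1 day and -0.09 for 12 weeks minus 3 days, with edgeR adjusted p-values of 0.816, 0.236 and 0.488.

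Within groups no correlation between members passed the test. With 6 libraries a group there are only 720 pairings, and the adjustment covered 24 correlations. Little short of a nearly perfect relation could have passed by Pearson's r. By Spearman's rho even a perfect relation in a single pair could not have passed. The test therefore cannot decide whether members follow one another. Of 24 correlations of log2 CPM (6 pairs in each of 4 groups, n = 6), 2 had an exact permutation p under 0.05 and none after Benjamini-Hochberg adjustment (lowest adjusted p 0.266 for Pearson's r and 0.4 for Spearman's rho). Slc2a4 and Hk2 correlated with r = 0.83 at 1 day (exact permutation p = 0.0111, adjusted p = 0.266, rho = 0.89 with exact p = 0.0333). At 12 weeks the same pair had r = -0.78 (exact permutation p = 0.0375, adjusted p = 0.45, rho = -0.94 with exact p = 0.0167). Without the 2 libraries farthest from the median of Slc2a4, r was 0.97 at 1 day and -0.86 at 12 weeks (n = 4). Slc2a1 and Hk2 had r = 0.90 at 12 weeks (exact permutation p = 0.0597, adjusted p = 0.478), but rho was 0.43 (exact p = 0.419), and r was -0.95 without the 2 libraries farthest from the median of Slc2a1. Without replicate 3 alone r was 0.28 (n = 5), so the relation rests on the libraries left out.

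**Figure D4:**
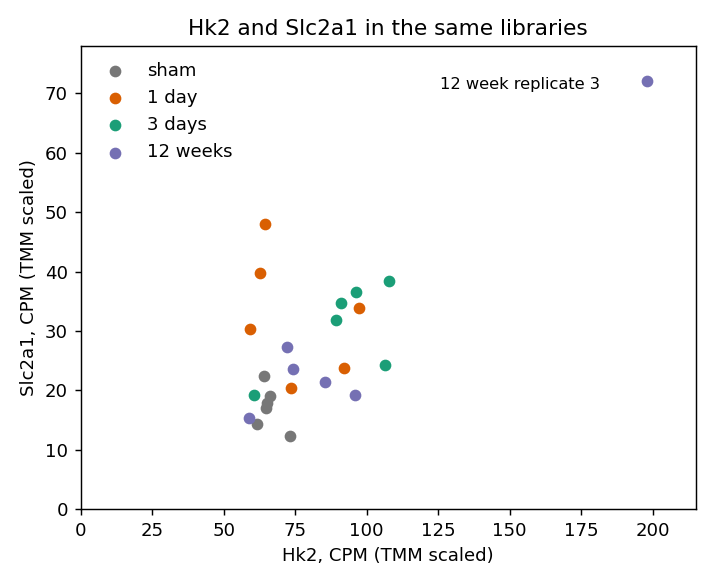
Slc2a1 against Hk2 in the same library, both in CPM after TMM scaling, 1 point per library and coloured by group (n = 24). 12 week replicate 3 lies apart at 198 CPM for Hk2 and 72.0 CPM for Slc2a1, and the 1 day libraries with the 2 highest values of Slc2a1, 47.9 and 39.8 CPM, have Hk2 at 64.3 and 62.8 CPM, in the range of sham.

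Likeness of pattern was measured as Pearson's r of log2 CPM over the 24 libraries against each of the other 15064 tested genes, as a description without a test, since these points share depth and scaling. The gene most like Slc2a4 was ENSRNOG00000018903, with r = 0.775, and 0.769 without 12 week replicate 3. Its mean was 181 CPM in sham, 244 at 1 day, 340 at 3 days and 190 at 12 weeks, and it was called higher than sham at 1 day (log2 fold change 0.43, edgeR adjusted p = 0.00598) and at 3 days (0.91, adjusted p = 6.52e-06). The gene most like Slc2a1 was ENSRNOG00000014956, with r = 0.796, a gene of low level with means of 1.22, 2.17, 2.33 and 2.42 CPM in order of sham, 1 day, 3 days and 12 weeks. Without 12 week replicate 3 this r was 0.70. No gene reached r of 0.8 with Slc2a1, Slc2a4 or Ldha over the 24 libraries, and 1 gene did with Hk2 (r = 0.826, which was 0.612 without 12 week replicate 3). The highest r for Ldha was 0.748. When 12 week replicate 3 was left out, a different gene was the most alike for each of the 4 members, with r of 0.84 for Slc2a1, 0.80 for Slc2a4, 0.80 for Hk2 and 0.73 for Ldha over 23 libraries. In that set 6 genes passed r of 0.8 with Slc2a1, 1 with Slc2a4, 1 with Hk2 and 0 with Ldha, so which genes are most alike depends on this library. The files do not pair these IDs with names.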

How the data were processed

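RNA was measured by sequencing of ribosome-depleted, strand-specific libraries, read as paired ends on a DNBSEQ instrument, per the labels' protocols. The authors deposited raw counts per gene in 1 table of protein-coding genes. FastQC 0.12.1, STAR 2.7.11a, featureCounts 2.0.6 and build mRatBN7.2 are named in the submitters' processing notes. For the strand setting, the annotation release and multi-mapping reads nothing is stated in the labels or the table, so overlapping genes and near-identical copies may share reads. The table has 26166 lines for 23098 IDs; repeated lines of the 781 IDs held identical counts and each ID was used once.

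The counts went into edgeR 4.0.16 under R 4.3.3: filterByExpr by group (15065 genes), TMM factors, 1 model of all 24 libraries with a term per group, quasi-likelihood F tests, two-sided, Benjamini-Hochberg adjustment over all tested genes, threshold 0.05. The common biological coefficient of variation was 0.169, and standard errors were computed as the log2 fold change over the root of F. Alternatives used DESeq2 1.42.0, limma 3.58.1 and sva 3.50.0 (5 surrogate variables). The steps were tested on simulated data. Over 60 pairs of replicates, chi-square per degree of freedom was 13.3 to 115.3, so none agreed within sampling noise. Even numbers made up 58.1 to 61.1% of counts from 1 to 200, so that counts and fragments need not be equal, and counting errors are lower limits.

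The members, lists and tests were chosen with earlier results of these data known. The genes named are the 4 members and, by a naming rule set for this work, for each member the gene with the most alike pattern over all libraries (printed by ID for 2 of them); lists of pathway genes and cell type markers could not be used, since none of the IDs matched a symbol (0 of 23098). Member symbols come from the selection rule. Promoter windows come from RefSeq, build GRCr8, a later build than that of the counts.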

Additional observations from a re-analysis of the deposited data

Results flagged for a closer look

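In 12 week replicate 3, Slc2a1 was at 72.0 CPM where the other 5 libraries of the group had 15.4 to 27.3 CPM, and Hk2 was at 198.1 CPM where the others had 58.9 to 96.0 CPM. In both the gap to the next library was a larger share of the group's range (0.791 and 0.734) than Dixon's 95% critical value for 6 samples. The check covered 16 groups of values, and chance flags about 1 in 20.

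Slc2a4 differed between SCI groups by direct test. The log2 difference was 0.32 for 3 days minus 1 day (edgeR adjusted p = 0.0256, all 6 of the 3 day libraries above every 1 day library) and -0.37 for 12 weeks minus 3 days (adjusted p = 0.000702, all 6 of the 12 week libraries below every 3 day library). Each of these comparisons crosses the runs of library numbers. Sham and 3 days, within a run, differed by 0.42.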

How the results depend on the processing

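Each of 30 results (24 for the members and 6 counts of genes called) was recomputed under 8 other settings and with each library left out. Of 192 values of the members under other settings, 167 kept their direction and their side of the threshold, and of 48 counts of genes called 43 stayed within 1.5 times the count reported. Most of the 24 member results were uncalled, so most of the values kept were uncalled too. In 11 of the 192 a call was lost, each for Slc2a1 or Hk2 at 12 weeks against sham. The values kept include all values of Slc2a4 for 3 days against sham, 3 days against 1 day and 12 weeks against 3 days. The replicate numbers do not pair the libraries: the deviations of same-numbered libraries correlated with a median r of -0.012 over 36 pairs, and 2 of 24 libraries correlated best with their own number. The replicate block ended the 12 week calls of Slc2a1 (log2 fold change 0.69) and Hk2 (0.50) and changed no other call of a member. These calls also ended with limma-voom (0.63 and 0.46), without a filter on low counts (0.79 and 0.56), with only the 2 groups compared (0.80 and 0.57) and without the 3 least correlated libraries (0.41 and 0.32), a setting chosen after seeing the data. With surrogate variables the call of Slc2a1 ended (0.59). Over these settings the edgeR, limma and DESeq2 adjusted p was 0.0419 to 0.133 for Slc2a1 and 0.0258 to 0.0975 for Hk2. Hk2 at 3 days passed the threshold with only the 2 groups compared (0.49), with surrogate variables (0.61) and without the 3 libraries (0.58). Ldha at 1 day passed it with upper-quartile factors (0.25) and with surrogate variables (0.29). Without the 3 libraries the Hk2 rise from 1 to 3 days (0.39) and the Slc2a1 difference of 12 weeks minus 1 day (-0.51) passed. Uncalled values changed sign with surrogate variables for Ldha at 12 weeks (-0.014), Slc2a1 for 3 days minus 1 day (0.0016), Slc2a4 for 12 weeks minus 1 day (0.035) and Hk2 for 12 weeks minus 3 days (-0.15). They did so for the last with limma-voom (-0.015), and without the 3 libraries for Hk2 for 12 weeks minus 3 days (-0.26) and Slc2a1 for 3 days minus 1 day (0.022). The count of genes called between 3 days and 1 day, 413, was 817 with DESeq2, 259 with only the 2 groups, 1129 with surrogate variables and 1018 without the 3 libraries. That between 12 weeks and 1 day, 5106, was 2923 with surrogate variables. The cause was not tested.

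With each library left out, the log2 fold change of Slc2a1 against sham ranged from 0.79 to 1.03 at 1 day, 0.77 to 0.95 at 3 days and 0.32 to 0.93 at 12 weeks. Its differences ranged from -0.18 to 0.065 for 3 days minus 1 day, -0.60 to 0.012 for 12 weeks minus 1 day and -0.53 to 0.074 for 12 weeks minus 3 days. Hk2 ranged from 0.099 to 0.25 at 1 day, 0.44 to 0.58 at 3 days, 0.24 to 0.68 at 12 weeks, 0.047 to 0.48 for 12 weeks minus 1 day and -0.25 to 0.19 for 12 weeks minus 3 days. Slc2a4 ranged from -0.0064 to 0.074 at 12 weeks and 0.27 to 0.35 for 3 days minus 1 day. Ldha ranged from 0.17 to 0.29 at 1 day, 0.029 to 0.13 at 12 weeks and -0.11 to 0.00059 for 3 days minus 1 day. The count between 3 days and 1 day ranged from 170 without 1 day replicate 5 to 653 without 12 week replicate 3. Counts of the members were 244 or more. The libraries with the lowest totals were 12 week replicate 1 and 3 day replicate 5, with 15002476 and 16756399 counts. Each had the lowest Slc2a1 and the lowest Hk2 of its group, but not the lowest Slc2a4 or Ldha. In the other groups the shallowest libraries were sham replicate 6 and 1 day replicate 2. The first had the highest Slc2a1 of its group and the second the lowest, and neither had the lowest Hk2. Whether depth had a part in these results was not tested.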
